A study of Mus musculus with 2 samples.

Results

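Hebp1, a gene on mouse chromosome 6, and 6 genes that lie around it were examined in blood cells of WT and APP/PS1 mice. Hebp1 was chosen by its measured UMI counts, which were close to none in the APP/PS1 library, so its own values are a description and support nothing. The neighbours Fam234b, Emp1, Dusp16, Crebl2, Cdkn1b and Ddx47 were chosen for their position, to see whether the near loss of Hebp1 RNA was shared by genes nearby. All 7 were found by symbol, each in 1 row of the 32285 genes of the deposited count table, and 56 genes of that table start within 2 Mb of Hebp1.

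The data were 2 single-cell RNA-seq libraries made with the 10x Genomics droplet method. The WT library came from C57BL/6J mice and the other from APP/PS1 transgenic mice, which carry mutant human amyloid precursor protein and presenilin transgenes and deposit amyloid in the brain. Each library pooled cells of 3 female mice at 7 months of age, whose blood was depleted of red cells and enriched for neutrophils with a kit. No treatment was given, and the mice of both genotypes were bought, with no statement that they were littermates. With 1 library per genotype there was no replicate and no test was run. A difference between genotypes cannot be told apart from one between the pools, the libraries or the genetic backgrounds of the mice.

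HEBP1 is a cytosolic protein that binds haem, and a peptide cut from its N-terminus, called F2L, is a chemoattractant that acts on formyl peptide receptors of monocytes and neutrophils. EMP1 is a tetraspan membrane protein of the PMP22 family, and FAM234B is a membrane protein of little known function. DUSP16 is a phosphatase that inactivates the stress kinases JNK and p38. CDKN1B is an inhibitor of cyclin-dependent kinases that holds cells in G1, CREBL2 is a relative of the CREB transcription factors, and DDX47 is an RNA helicase of ribosomal RNA processing.

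The WT library held 17123 cells and 92458623 UMIs (unique molecular identifiers, counts of RNA molecules) and the APP/PS1 library 17645 cells and 84870864 UMIs, of which 14564 and 15208 cells passed the study's filters. Clustering gave 13 clusters, named by markers. Neutrophil-like cells (clusters 0, 1 and 8) were 7592 in WT and 9590 in APP/PS1, with all 8 neutrophil markers detected. In them these 8 markers summed to 181677 CPM (counts per 1e6 UMIs of the same cells) in WT against 153838 in APP/PS1. Markers of other cells were also present, 6 erythroid ones at 1789 and 1079 CPM, 6 platelet ones at 746 and 906 CPM and 10 monocyte ones at 571 and 528 CPM. The erythroid sum was thus lower in APP/PS1, as Hebp1 was, and its part in the Hebp1 difference was not tested. Of the other cells, 2 clusters were monocyte-like. Of the 10 monocyte markers 5 stood out in cluster 2 and 7 in cluster 3. The leading genes of cluster 2 by fold mixed monocyte genes (Cd300e, Lilra5) with genes of epithelium (Krt6b, Krt13, Mal, Calml3), which came from few cells. Krt13 UMIs were found in 13 of 2867 WT cells, and Cd300e UMIs in 1829. Cluster 3 was led by genes that include Fn1, F13a1, Vcan and the dendritic cell marker Cd209a. Barcodes found in both libraries numbered 83. CPM values are given with exact Poisson intervals and ratios of APP/PS1 to WT with exact conditional intervals, all at the 95% level, which cover counting error only.

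On the mm10 assembly the 7 genes follow one another on chromosome 6 in the order Dusp16, Crebl2, Cdkn1b, Ddx47, Hebp1, Fam234b and Emp1, from base 134715468 to base 135383173. The coding transcript of Hebp1 in GENCODE M21 lies on the minus strand and starts at base 135168215, 29.8 kb from the start of Fam234b, which runs the other way on the plus strand. A non-coding transcript of Hebp1 starts at base 135198022 and overlaps the first exon of Fam234b by 46 bases on the opposite strand. Hebp1 also overlaps the antisense gene Gm19434, which had 2 UMIs in kept WT cells and 1 in APP/PS1, and Fam234b overlaps Gsg1. Whether the counting used strand is not given in the sources used here, and whether it told reads in such overlaps apart was not examined.

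The 250 bases before the start are shown for Hebp1, for its nearest neighbour Fam234b and for Dusp16, which lies farthest away and was also lower in APP/PS1 neutrophil-like cells, so that the starts of lower genes can be compared. They are given 5′ to 3′ on the strand of the gene and from RefSeq (GRCm38.p6). They are Hebp1 at chr6:135168216-135168465 (minus strand), Fam234b at chr6:135197737-135197986 (plus) and Dusp16 at chr6:134792629-134792878 (minus). Capitals mark matches, on either strand, to the GC box (GGGCGG), the CCAAT box, the TATA box (TATAAA), the E-box (CACGTG), the AP-1 site (TGANTCA) or the ETS core (GGAAGT). Neighbouring matches may overlap.
Hebp1: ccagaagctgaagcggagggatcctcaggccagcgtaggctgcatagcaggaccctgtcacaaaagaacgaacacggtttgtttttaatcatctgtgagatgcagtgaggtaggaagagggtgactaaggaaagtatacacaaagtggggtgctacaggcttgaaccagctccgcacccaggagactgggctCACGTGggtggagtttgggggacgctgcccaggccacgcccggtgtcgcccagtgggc
Fam234b: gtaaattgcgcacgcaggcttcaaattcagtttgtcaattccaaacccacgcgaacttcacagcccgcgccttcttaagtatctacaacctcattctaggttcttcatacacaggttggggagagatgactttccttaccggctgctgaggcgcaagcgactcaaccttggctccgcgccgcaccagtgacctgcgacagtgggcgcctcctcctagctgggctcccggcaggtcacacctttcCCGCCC
Dusp16: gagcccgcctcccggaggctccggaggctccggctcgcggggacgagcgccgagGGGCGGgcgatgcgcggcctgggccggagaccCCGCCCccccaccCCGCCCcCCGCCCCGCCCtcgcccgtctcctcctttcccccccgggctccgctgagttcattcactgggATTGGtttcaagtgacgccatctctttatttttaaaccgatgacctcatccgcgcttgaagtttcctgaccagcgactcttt
The table matched 6 of the 7 genes, all but Crebl2. Fam234b and Emp1 each have 2 entries, of which the first was used and that of Emp1 is not shown. The Hebp1 stretch held 1 E-box, at 58 bases before the start, a motif found in 6.02% of 32817 such stretches in the table. The Emp1 stretch held 2 AP-1 matches (6.75% of all stretches hold at least 1), the Dusp16 stretch 5 GC boxes and 1 CCAAT, and the Fam234b stretch 1 GC box, which 32.7% of all stretches hold. The last 10 bases of the Fam234b stretch, with its GC box, lie past the GENCODE M21 start of Fam234b at base 135197977, not before it. The Emp1 stretch overlaps annotated untranslated exon by 54 bases. None of the 6 motifs was found in all 4 of these stretches.

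Hebp1 RNA was found in WT neutrophil-like and monocyte-like cells and was nearly absent from the same cells of APP/PS1 mice. In neutrophil-like cells 403 Hebp1 UMIs were counted in WT, of 21800000 in all, and 2 in APP/PS1, of 29475670. The level was 18.5 CPM (16.7 to 20.4) in WT against 0.0679 CPM (0.00822 to 0.245) in APP/PS1, a log2 ratio of −8.09 (−11.14 to −6.23). This was the lowest ratio of the 8622 genes that reached at least 50 UMIs in a library in these cells. The difference was seen in each large neutrophil-like cluster. Cluster 0 held 299 Hebp1 UMIs in WT and 2 in APP/PS1. Cluster 1, whose leading genes include the platelet genes Slc6a4 and Alox12, held 101 and 0. With 3 UMIs put in place of the 0 and the WT count taken as exact, the level was 69.2-fold lower in APP/PS1, which is not a lower bound. Cluster 8, led by the granule genes Camp, Ltf and Ngp, held 3 and 0 UMIs, too few for a comparison.

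Most of the Hebp1 UMIs of WT came from monocyte-like cells, in which the difference was of the same kind. Monocyte-like cluster 3 held 991 Hebp1 UMIs in WT, 62.0% of those of all kept cells, and 7 in APP/PS1. The level was 47.6 CPM (44.7 to 50.7) in WT against 0.503 CPM (0.202 to 1.04) in APP/PS1, a log2 ratio of −6.56 (−7.88 to −5.52), the lowest of 10959 genes that reached at least 20 UMIs in a library. In monocyte-like cluster 2, 162 and 3 Hebp1 UMIs were counted, at 11.5 and 0.343 CPM, a log2 ratio of −5.07 (−7.36 to −3.50). That ratio was the fifth lowest of 10462 genes.

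The order of Hebp1 levels over cell types differed between the libraries. In WT, monocyte-like cluster 3 was highest, then neutrophil-like cells and then monocyte-like cluster 2, with intervals that did not overlap. Erythroid-like cells, at 11.3 CPM (7.11 to 17.2), overlapped with the last 2 of these and with lymphocytes. T cell-like cluster 5 (4.27 CPM), B cell-like cells (3.64 CPM) and NK cell-like cells (3.60 CPM) were lower than monocyte-like cluster 2 and did not differ from each other beyond their intervals. T cell-like cluster 9 and platelet-like cells held no Hebp1 UMI in either library, and plasma cell-like and basophil-like cells 1 each in WT, too few to place. In APP/PS1, erythroid-like cells held the highest level, 6.04 CPM (2.22 to 13.2), above neutrophil-like cells and both monocyte-like clusters, whose intervals all ended at or below 1.04 CPM. In T cell-like cluster 5 and NK cell-like cells of APP/PS1 no Hebp1 UMI was counted, where 3 UMIs would stand at 1.61 and 1.04 CPM.

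Free RNA from broken cells can enter other droplets, so a neutrophil gene was looked up in lymphocytes. S100a8, an abundant neutrophil gene, stood at 65282 CPM in WT neutrophil-like cells and at 5283 CPM in T cell-like cluster 5 of WT. The share of cells with at least 1 Hebp1 UMI was 4.76% (361 of 7592, exact interval 4.29 to 5.26) in WT neutrophil-like cells, at a median of 2553 UMIs per cell. In WT T cell-like cluster 5 it was 1.77% (6 of 339), at a median of 4172 UMIs. Whether these lymphocyte UMIs came from free RNA, doublets or the cells themselves was not tested. In APP/PS1 neutrophil-like cells the share was 0.0209% (2 of 9590, 0.00253 to 0.0753), at a median of 2703 UMIs, so the APP/PS1 cells were not shallower. With every cell thinned to 1000 UMIs the shares were 1.96% in WT and 0% in APP/PS1 (0 of 9588 cells, exact interval 0 to 0.0385). In WT monocyte-like cluster 3 the share was 22.3%, against 0.365% in APP/PS1.

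**Figure D1:**
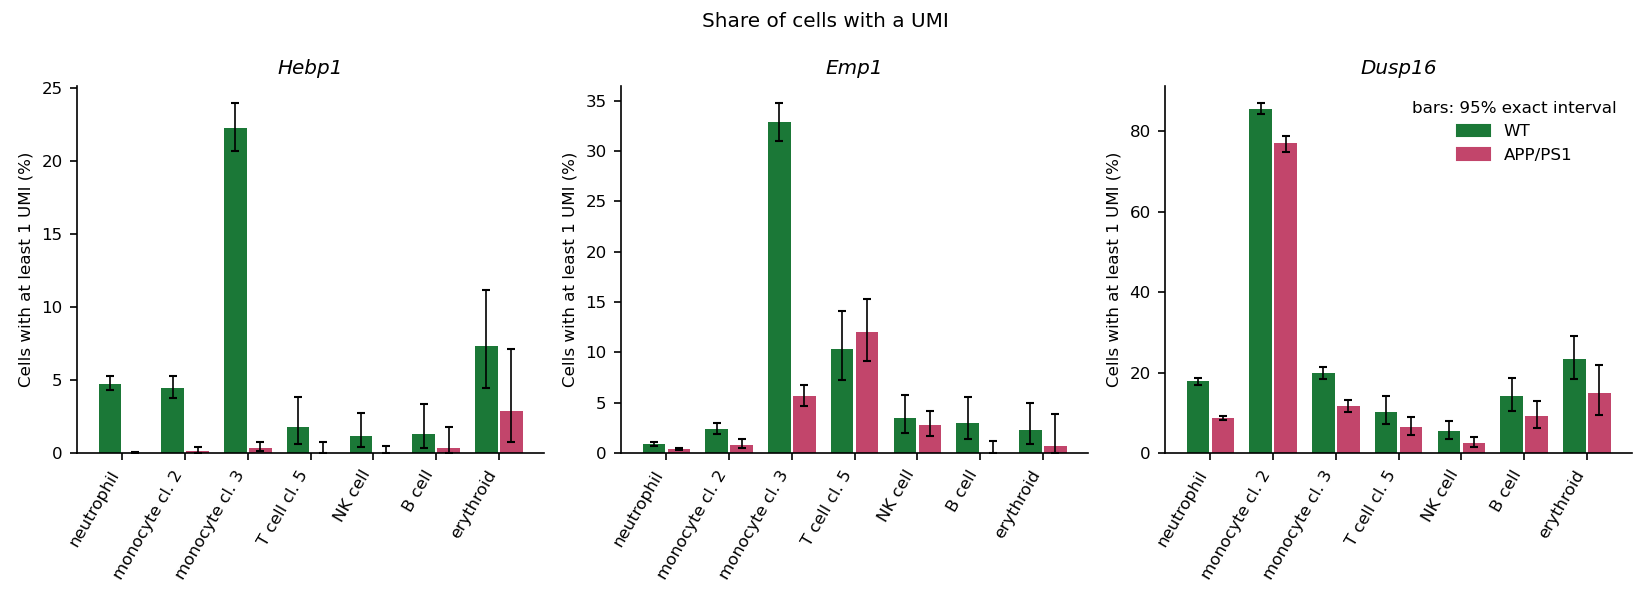
Share of cells with at least 1 UMI of Hebp1, Emp1 and Dusp16 (percent, vertical axis) by cell type (horizontal axis) in WT (green) and APP/PS1 (pink), with exact 95% intervals. Hebp1 was in 22.3% of WT monocyte-like cluster 3 cells and 0.365% of APP/PS1 cells, while Emp1 shares in T cell-like cluster 5 were 10.3% and 12.0%. The shares shown are not matched for depth, and with cells thinned to 1000 UMIs these Emp1 shares were 2.06% and 5.35%.

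Erythroid-like cells, of the red cell lineage, were an exception. In erythroid-like cells, 22 Hebp1 UMIs were counted in 260 WT cells and 6 in 140 APP/PS1 cells, at 11.3 and 6.04 CPM, and the interval of the log2 ratio of −0.91 (−2.50 to 0.44) held 0. These cells also carried S100a8 at 11994 and 14305 CPM. The filter on genes per cell removes most erythroid cells, so they were also clustered without the percentile limits, a choice made after the data were seen. In the largest erythroid-like cluster then found, of 903 WT and 590 APP/PS1 cells, S100a8 was only at 516 and 451 CPM. That cluster held 23 and 17 Hebp1 UMIs, at 6.08 CPM (3.85 to 9.12) in WT against 7.01 CPM (4.08 to 11.2) in APP/PS1, a log2 ratio of 0.20 (−0.79 to 1.17). Hebp1 levels in this cluster thus overlapped between the genotypes, unlike those in neutrophil-like and monocyte-like cells. A smaller erythroid-like cluster with S100a8 at 24390 and 21567 CPM held 11 Hebp1 UMIs in WT and 1 in APP/PS1. Over all 3 erythroid-like clusters the counts were 38 and 19, a log2 ratio of −0.45 (−1.33 to 0.38).

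Over every barcode of the APP/PS1 library, before any filter, 47 Hebp1 UMIs were counted in 43 cells, and 19 of these UMIs lay in 16 erythroid-like cells. None lay in the barcodes that both libraries share. The WT library held 2202 Hebp1 UMIs in 1441 cells.

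**Figure D2:**
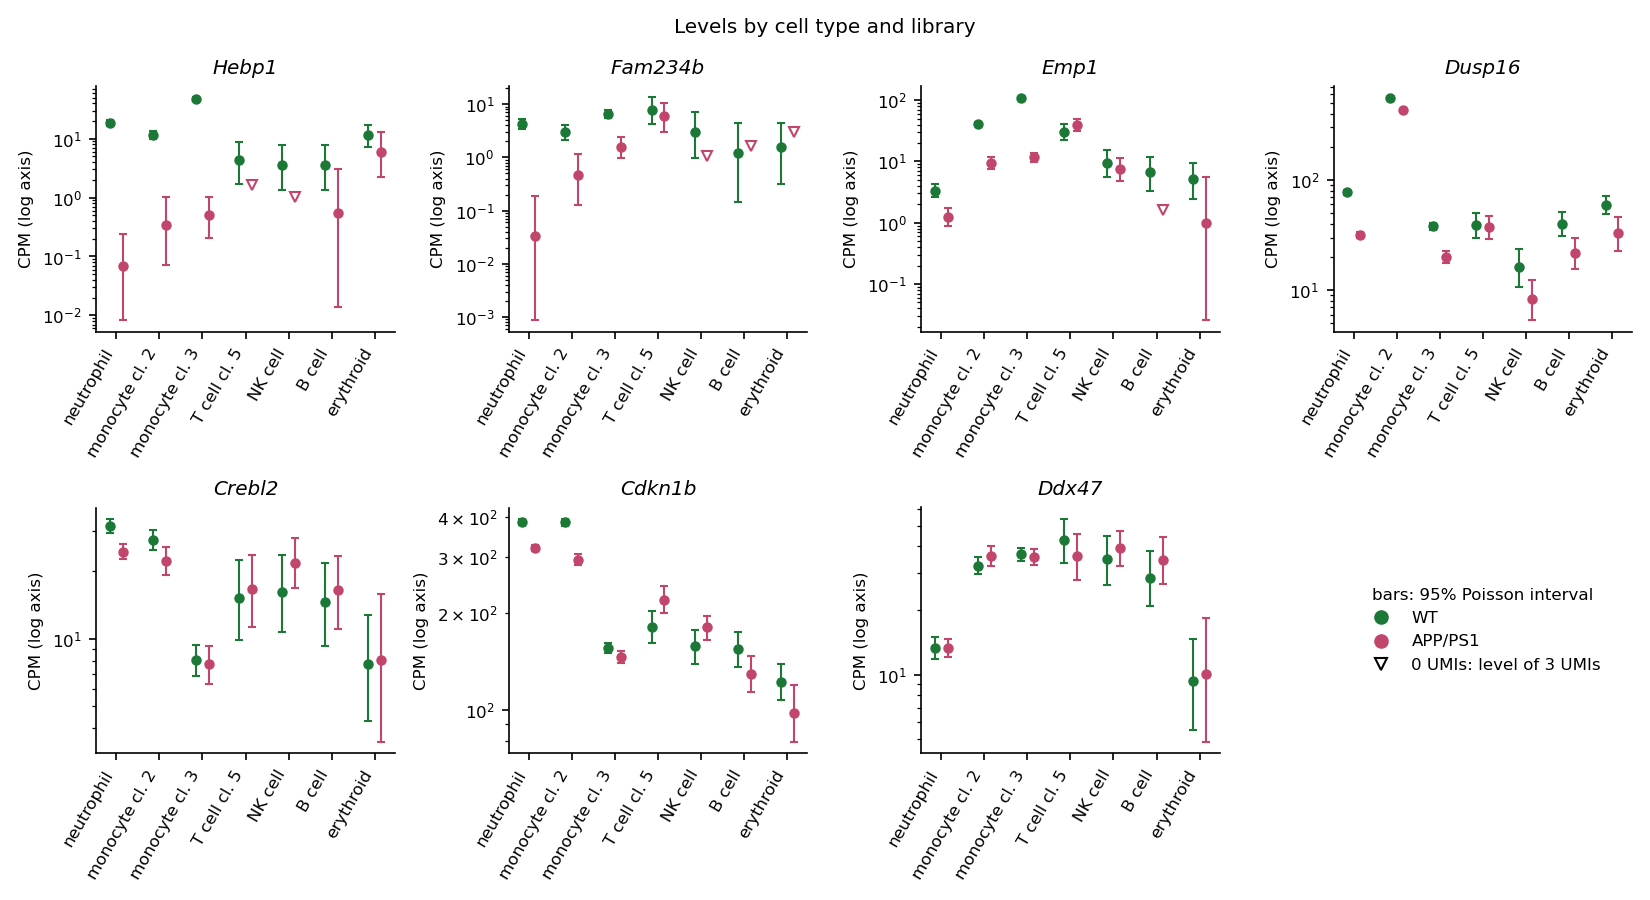
Level of each of the 7 genes (CPM, log axis) by cell type in WT (green) and APP/PS1 (pink), with 95% Poisson intervals, and open triangles at the level of 3 UMIs where none was counted. Hebp1 and Fam234b are far apart between libraries in neutrophil-like cells (18.5 against 0.0679 CPM for Hebp1), whereas Ddx47 intervals overlap in every cell type.

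Fam234b, the nearest neighbour, was also almost absent from APP/PS1 neutrophil-like cells. There, 94 Fam234b UMIs were counted in WT and 1 in APP/PS1, at 4.31 CPM (3.48 to 5.28) and 0.0339 CPM (0.000859 to 0.189). The log2 ratio was −6.99 (−12.31 to −4.48), the second lowest of the 8622 genes after Hebp1. The difference was smaller in monocyte-like cells, in which some Fam234b RNA remained. Monocyte-like cluster 3 held 134 Fam234b UMIs in WT and 22 in APP/PS1, at 6.44 and 1.58 CPM, a log2 ratio of −2.02 (−2.75 to −1.37). In monocyte-like cluster 2, 42 and 4 Fam234b UMIs gave a log2 ratio of −2.71 (−4.65 to −1.25). The interval for neutrophil-like cells overlapped with that of cluster 2 and not with that of cluster 3. In T cell-like cluster 5 Fam234b stood at 7.93 CPM (4.22 to 13.6) in WT, on 13 UMIs, and at 5.90 CPM (2.95 to 10.6) in APP/PS1, on 11 UMIs, and these intervals overlapped. The T cell-like level in APP/PS1 was therefore above the APP/PS1 level of neutrophil-like cells and of both monocyte-like clusters.

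Emp1, the neighbour on the far side of Fam234b, was lower in APP/PS1 neutrophil-like and monocyte-like cells, and its intervals overlapped in T cells. In monocyte-like cluster 3, 2231 Emp1 UMIs were counted in WT and 162 in APP/PS1. The level was 107 CPM (103 to 112) in WT against 11.7 CPM (9.93 to 13.6) in APP/PS1, a log2 ratio of −3.20 (−3.44 to −2.97). The UMIs were spread over many cells, 839 of 2554 in WT (32.9%) and 108 of 1917 in APP/PS1 (5.63%). In monocyte-like cluster 2, 576 and 82 Emp1 UMIs gave a log2 ratio of −2.13 (−2.48 to −1.79), but 506 of the WT UMIs lay in 6 cells and 59 of the APP/PS1 UMIs in 3 cells. Without the cells of 10 or more Emp1 UMIs, a choice made after the data were seen, the ratio in cluster 2 was −0.92 (−1.67 to −0.23) and that in cluster 3 was −3.35 (−3.60 to −3.10). Cluster 2 thus owed much of its difference to a few cells, and cluster 3 did not. Those few cells of cluster 2 carried epithelial genes. The 6 WT cells held 294 of the cluster's 302 Krt13 UMIs and the 3 APP/PS1 cells 41 of 57, with 0 Cd300e UMIs in either. In neutrophil-like cells 73 and 37 Emp1 UMIs gave 3.35 and 1.26 CPM, a log2 ratio of −1.42 (−2.03 to −0.83). That level is low, and whether it is the neutrophils' own RNA was not tested.

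In T and NK cells the Emp1 values of the libraries lay closer together. T cell-like cluster 5 held 50 Emp1 UMIs in WT and 74 in APP/PS1, at 30.5 CPM (22.6 to 40.2) and 39.7 CPM (31.2 to 49.8), a log2 ratio of 0.38 (−0.16 to 0.93). The ratio was 0.75 without called doublets. These WT cells were deeper, at a median of 4172 against 3382 UMIs. Thinned to 1000 UMIs, the share of them with an Emp1 UMI was 2.06% (0.83 to 4.21) in WT. In APP/PS1 it was 5.35% (3.49 to 7.80), higher than in WT with intervals that overlapped. T cell-like cluster 9, led by Il17a, Cd163l1 and Tcrg-C1, held 48 and 28 Emp1 UMIs, at 101 and 65.1 CPM, with a log2 ratio of −0.64 (−1.36 to 0.07). NK cell-like cells held 16 and 22 Emp1 UMIs, a log2 ratio of −0.33 (−1.33 to 0.70). All 3 intervals held 0, although the ratio of cluster 9 was itself beyond 0.5. B cell-like cells held 11 Emp1 UMIs in WT and 0 in APP/PS1. With 3 UMIs put in place of the 0 and the WT count taken as exact, that is 4.06-fold lower, which is not a lower bound. S100a8, a neutrophil gene, was also higher in WT B cell-like cells, at 4701 against 2408 CPM. A small unnamed cluster, found only without the percentile limits and made of 13 WT and 15 APP/PS1 cells, was led by genes of epithelium (Krt17, Krt6b, Krt15, Sprr2f) and had the highest Emp1 level of the groups examined, 7040 CPM in WT against 5559 CPM in APP/PS1.

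Dusp16 was lower in APP/PS1 neutrophil-like cells by a smaller factor and on many more UMIs. In these cells 1681 Dusp16 UMIs were counted in WT and 942 in APP/PS1. The level was 77.1 CPM (73.5 to 80.9) in WT against 32.0 CPM (29.95 to 34.1) in APP/PS1, a log2 ratio of −1.27 (−1.39 to −1.15), or 2.41-fold lower. The ratio was −1.27 in cluster 0 and −1.29 in cluster 1. In monocyte-like cluster 3 the level was 38.1 CPM in WT against 20.1 CPM in APP/PS1, a log2 ratio of −0.93 (−1.13 to −0.73). In monocyte-like cluster 2, where Dusp16 was highest, it was 552 CPM (540 to 565) in WT against 429 CPM (416 to 443) in APP/PS1, a log2 ratio of −0.36 (−0.42 to −0.31). The difference was thus smallest among these myeloid groups where the level was highest. B cell-like cells (40.0 and 21.9 CPM, log2 ratio −0.87, −1.48 to −0.28) and NK cell-like cells (16.2 and 8.31 CPM, −0.96, −1.82 to −0.11) also had less Dusp16 in APP/PS1. T cell-like cluster 5 had 39.0 and 37.6 CPM, a log2 ratio of −0.05 (−0.56 to 0.46) whose interval held 0.

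Cdkn1b, Crebl2 and Ddx47, which lie between Dusp16 and Hebp1, stayed within 0.5 log2 in neutrophil-like cells and both monocyte-like clusters. Counted from the lowest ratio of the 8622 genes in neutrophil-like cells, Crebl2 ranked 505, Cdkn1b 778 and Ddx47 3331. Cdkn1b was at 387 CPM (379 to 396) in WT neutrophil-like cells and 320 CPM (314 to 327) in APP/PS1, a log2 ratio of −0.28 (−0.32 to −0.23). Its ratio was −0.39 (−0.46 to −0.32) in monocyte-like cluster 2 and −0.09 (−0.17 to −0.01) in cluster 3. In T cell-like cluster 5 Cdkn1b was higher in APP/PS1, at 221 CPM (200.2 to 243) against 182 CPM (162 to 204) in WT, a log2 ratio of 0.28 (0.06 to 0.50). The sign for Cdkn1b therefore was not shared by all cell types. Crebl2 was at 31.7 CPM (29.4 to 34.2) in WT neutrophil-like cells and 24.4 CPM (22.7 to 26.3) in APP/PS1, a log2 ratio of −0.38 (−0.53 to −0.23). The Crebl2 ratio was −0.31 (−0.57 to −0.06) in monocyte-like cluster 2 and −0.06 (−0.42 to 0.30) in cluster 3. Ddx47, the nearest member on the other side of Hebp1 from Fam234b, was at 13.3 CPM (11.9 to 14.97) in WT neutrophil-like cells and 13.4 CPM (12.1 to 14.8) in APP/PS1. Its log2 ratio was 0.00 (−0.22 to 0.23) there, 0.15 (−0.06 to 0.36) in monocyte-like cluster 2 and −0.04 (−0.20 to 0.13) in cluster 3. The near loss of Hebp1 was not seen in Ddx47, whose intervals, for counting error only, ran from −0.22 to 0.36 at most in these 3 groups.

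Counted together, 4 of the 7 genes (Hebp1, Fam234b, Emp1 and Dusp16) were lower by more than 0.5 log2 in APP/PS1 neutrophil-like cells, 0 were higher and 3 lay within 0.5, where 3.72% of 8622 genes were lower by as much and 5.68% higher. The median over the 7 was −1.27 and over all genes 0.06. Hebp1 was one of the 4 by choice, and Hebp1, Fam234b and Emp1 passed the minimum of 50 UMIs through the WT library alone. In monocyte-like cluster 3 the same 4 were lower (background 5.02%), and in monocyte-like cluster 2 Hebp1, Fam234b and Emp1 were (background 5.91%). Hebp1 in both of these clusters and Fam234b in cluster 2 passed the minimum of 20 UMIs through WT alone. In T cell-like cluster 5, 0 of the 5 genes that reached at least 20 UMIs in a library were lower, where 9.55% of 7782 genes were. Hebp1 (7 UMIs in WT and 0 in APP/PS1) and Fam234b (13 and 11) did not reach that minimum there and are not in this count. Dusp16 was the only one lower among 5 in NK cell-like cells (background 4.74%) and among 4 in B cell-like cells (background 11.2%). In NK cell-like cells Hebp1 and Fam234b did not reach the minimum either, and in B cell-like cells Hebp1, Fam234b and Emp1 did not. The lymphocyte counts therefore say nothing on the genes left out. In erythroid-like cells Hebp1 and Dusp16 were lower among 3 (background 10.6%), and without the percentile limits Dusp16 alone was (background 6.4%). With the limits, Hebp1 passed the minimum of 20 UMIs in erythroid-like cells through WT alone. The interval of its log2 ratio there (−2.50 to 0.44) held 0.

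**Figure D3:**
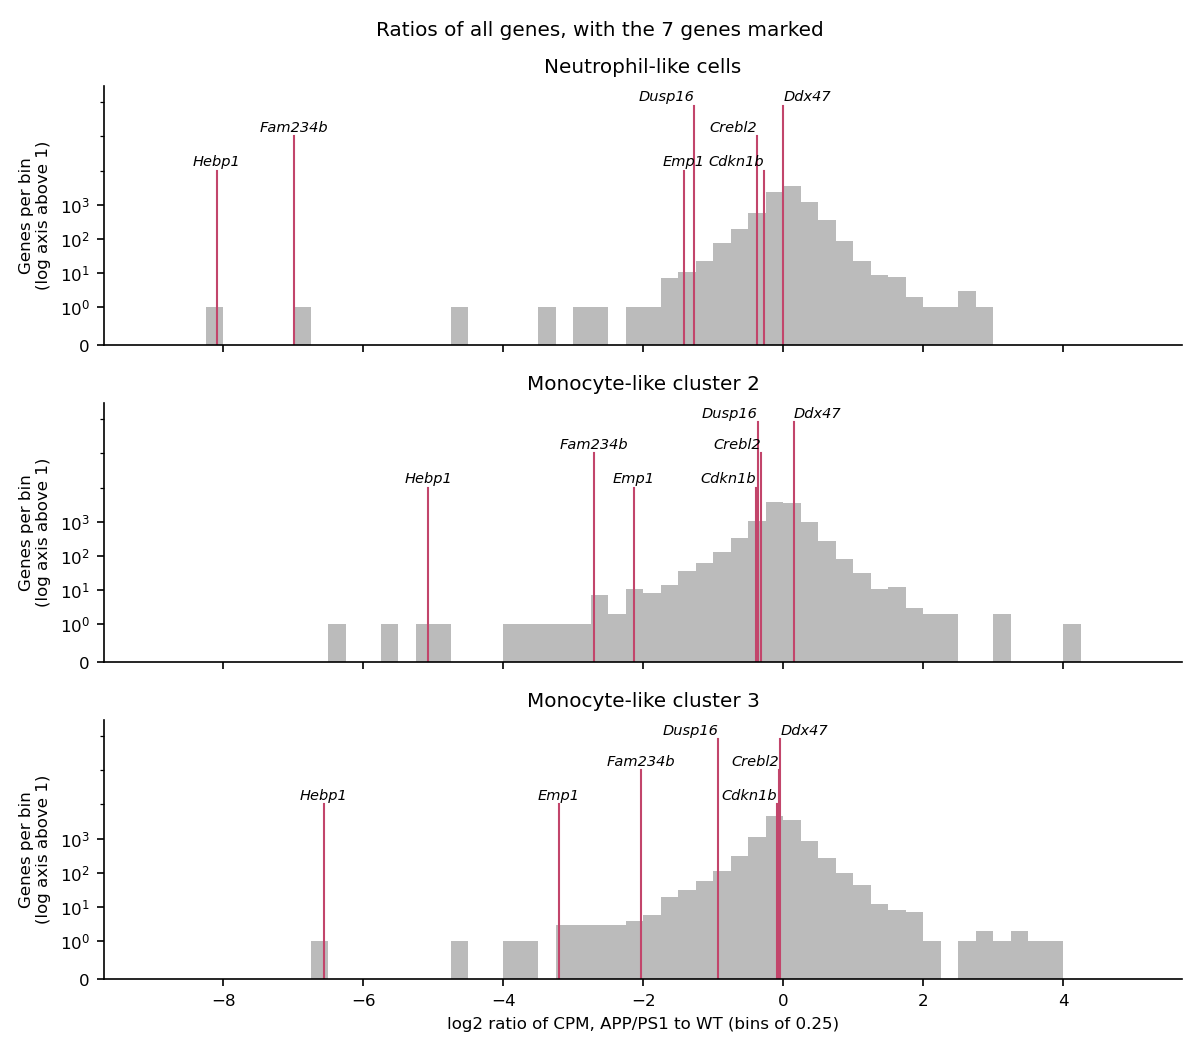
Number of genes per bin of 0.25 log2 ratio of APP/PS1 to WT (vertical axis linear below 1 and logarithmic above, genes at 0 UMIs in a library left out), in neutrophil-like cells and both monocyte-like clusters, with the 7 genes as pink lines. Hebp1 at −8.09 and Fam234b at −6.99 stand apart from the 8622 genes of neutrophil-like cells, and Ddx47 at 0.00 lies in the middle.

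The genes around Hebp1 were then taken in order. Of the 56 genes that start within 2 Mb, 19 other than Hebp1 had at least 50 UMIs in a library in neutrophil-like cells, and 5 of them were lower by more than 0.5, 1 higher and 13 within 0.5. Their median was 0.00, and it was −0.54 over the 10 genes within 1 Mb and −0.05 over the 27 within 5 Mb. Over the 431 genes of all of chromosome 6, 3.71% were lower by more than 0.5, close to the 3.72% of all genes. These 5 lower genes lay within 1 Mb of Hebp1, from Lrp6 at 631 kb on one side to Emp1 at 165 kb on the other. Distances are measured between gene starts from the longest Hebp1 transcript, and genes within 0.5 were interspersed. Of the 5, Fam234b and Emp1 passed the minimum of 50 UMIs through the WT library alone. Within 5 Mb there was 1 more lower gene, Ptpro, a receptor tyrosine phosphatase gene at 2054 kb named after its values were seen. It had 99 UMIs in WT and 61 in APP/PS1 and a log2 ratio of −1.13 (−1.62 to −0.66). In monocyte-like cluster 3, on 2766 and 1711 UMIs, its ratio was −0.11 (−0.20 to −0.02), and in cluster 2 −0.02 (−0.16 to 0.12). Whether the Ptpro UMIs of neutrophil-like cells were the neutrophils' own RNA was not tested.

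Besides the chosen genes, the lower ones in neutrophil-like cells were Borcs5 and Lrp6. Borcs5, a subunit of a complex that positions lysosomes, held 186 UMIs in WT and 76 in APP/PS1, a log2 ratio of −1.73 (−2.13 to −1.33), while in monocyte-like cluster 2 its ratio was −0.57 (−1.06 to −0.09) and in cluster 3 −0.25 (−0.53 to 0.03). Lrp6, a coreceptor of Wnt signals, held 78 and 65 UMIs, a log2 ratio of −0.70 (−1.20 to −0.20). In monocyte-like clusters 2 and 3 the Lrp6 ratio was −0.15 (−0.39 to 0.10) and −0.14 (−0.38 to 0.11), intervals that held 0. Whether the Lrp6 UMIs of neutrophil-like cells were the neutrophils' own RNA was not tested. Gsg1, named after its values were seen because it overlaps Fam234b on the opposite strand, held 27 UMIs in WT and 3 in APP/PS1 in monocyte-like cluster 3, a log2 ratio of −2.59 (−4.95 to −0.89), and had 1 and 0 in neutrophil-like cells. The antisense genes Gm36328 (0.11) and 2810454H06Rik (0.47) in the same stretch were within 0.5 in neutrophil-like cells. Mansc1, Gpr19 and Lockd did not reach 50 UMIs there.

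Farther out, no gene between Emp1 and Atf7ip, which starts 1308 kb away, reached 20 UMIs over the kept cells of a library. Etv6, a transcription factor gene of blood cells at 1162 kb on the other side, had a log2 ratio of 0.27 in neutrophil-like cells. On the side of Emp1 the log2 ratio was 0.15 for Atf7ip, 0.19 for Plbd1, 0.38 for Hist4h4, −0.06 for H2afj, −0.17 for Wbp11, 0.14 for Pde6h and 0.06 for Arhgdib, all within 0.5. BC049715 was higher, with 149 UMIs in WT and 309 in APP/PS1 and a log2 ratio of 0.62 (0.33 to 0.91). Mgp, a matrix protein gene, was higher in monocyte-like cluster 2 on few UMIs, 5 and 29, with a log2 ratio of 3.22 (1.83 to 4.95). Erp27 did not reach 50 UMIs in neutrophil-like cells.

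**Figure D4:**
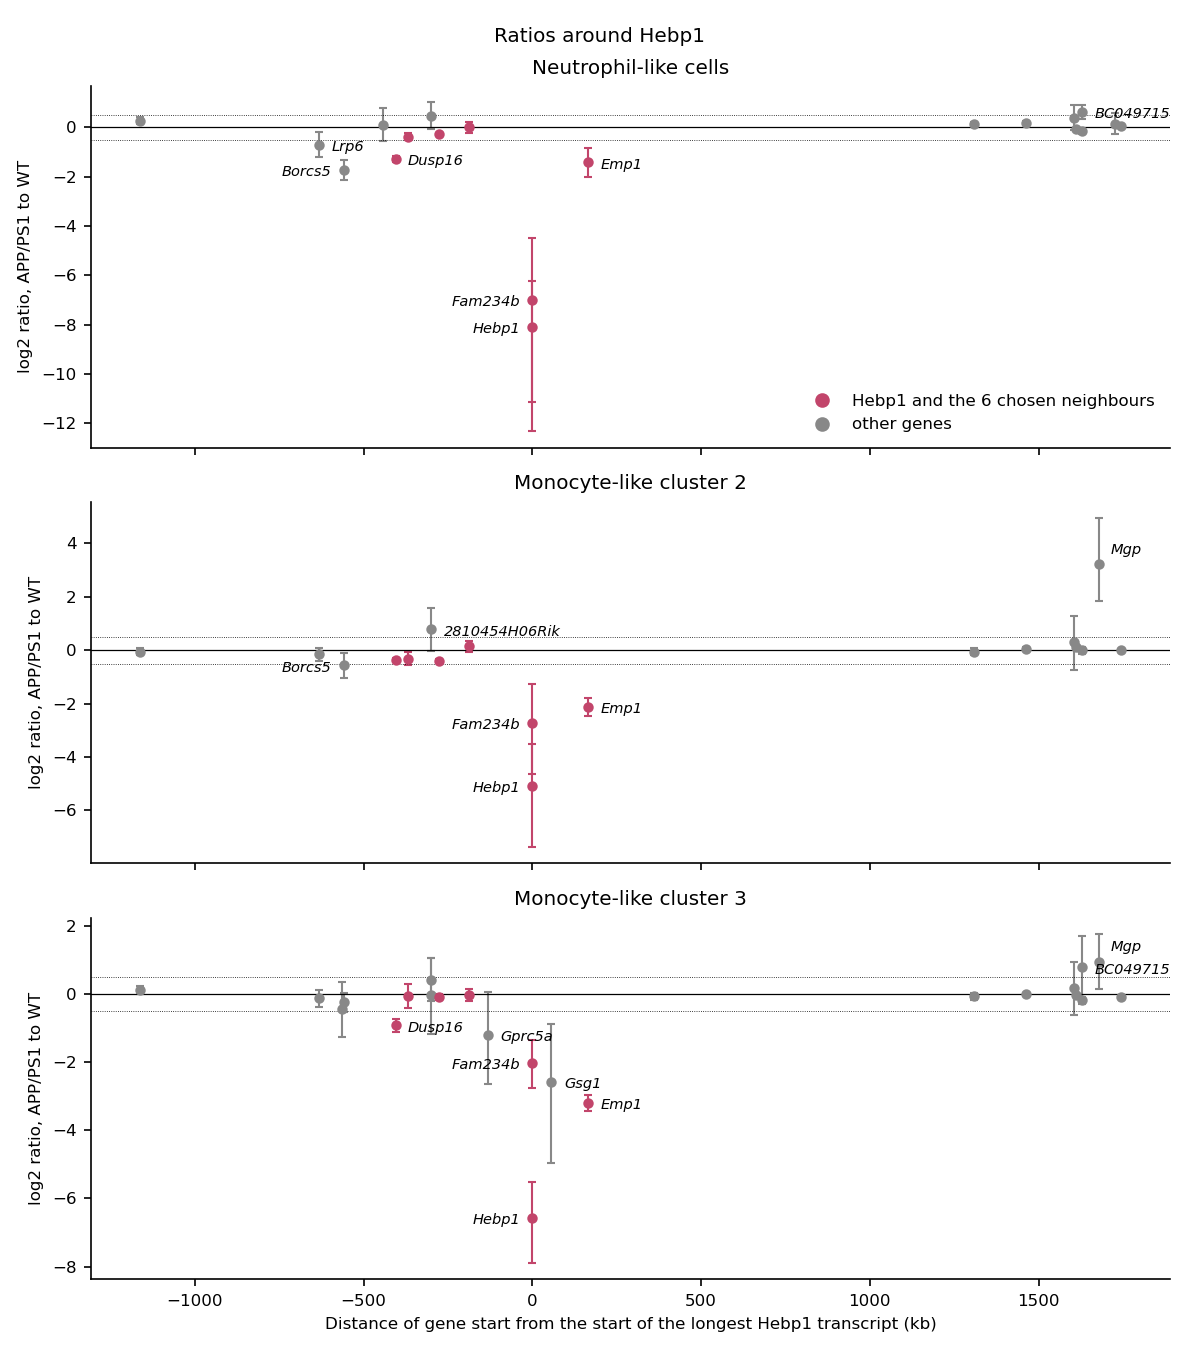
Log2 ratio of APP/PS1 to WT (vertical axis) against the distance of a gene's start from that of the longest Hebp1 transcript (kb, horizontal axis) within 2 Mb, in neutrophil-like cells and both monocyte-like clusters, with 95% intervals, the 7 genes in pink and others in grey, dotted lines at 0.5 either way, and names beyond them. Low ratios lie near Hebp1, with Fam234b and Emp1 next to it, and the plotted genes more than 1000 kb away lie within 0.5 of 0, except BC049715 and Mgp.

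Lists of genes that share a pathway or family with the 7 genes are to be read against the 3.72% of all genes that were lower by more than 0.5 in neutrophil-like cells. Of 25 listed genes of haem handling, 15 had at least 50 UMIs in a library, 2 were lower by more than 0.5 (Hebp1 and Lrp1) and 0 higher, and the median was 0.01. Hebp1 was chosen by its values and passed this minimum through WT alone. Lrp1, a receptor that takes up haem bound to haemopexin, had 149 UMIs in WT and 103 in APP/PS1, a log2 ratio of −0.97 (−1.34 to −0.60). Its levels there were low, 6.83 and 3.49 CPM, and whether they are the neutrophils' own RNA was not tested. In monocyte-like cluster 3 Lrp1 was at 251 and 234 CPM, a log2 ratio of −0.10 (−0.16 to −0.04). Hmox1, which breaks down haem, was at 56.6 CPM in WT against 61.2 CPM in APP/PS1, a log2 ratio of 0.11 (0.01 to 0.22). Hebp2, the relative of Hebp1, had 0 UMIs in neutrophil-like cells of both libraries, and in monocyte-like cluster 3 it had 1 and 7.

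The formyl peptide receptors, on which the HEBP1 peptide acts, were present in both libraries. Fpr1 was at 119 CPM in WT against 134 CPM in APP/PS1 neutrophil-like cells, a log2 ratio of 0.17 (0.10 to 0.24). Fpr2 was at 242 and 207 CPM, a log2 ratio of −0.22 (−0.28 to −0.17). Both stayed within 0.5, and the other 5 listed receptors did not reach 50 UMIs.

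Among 13 genes of the JNK and p38 pathways 9 were measured, and Dusp16 was the only one past 0.5 in neutrophil-like cells, with a list median of −0.13. Of 21 cyclin-dependent kinase inhibitors and G1 partners 11 were measured and 2 were lower. Cdkn1a, an inhibitor of cyclin-dependent kinases that p53 induces, had 62.0 CPM in WT against 25.5 CPM in APP/PS1, a log2 ratio of −1.28 (−1.41 to −1.15), and Cdkn2c had a log2 ratio of −0.77 (−1.25 to −0.30). Neither lies on this stretch of chromosome 6. Of the CREB group 8 of 9 were measured and 0 were past 0.5 (median −0.05). Of 16 genes of ribosomal RNA processing 12 were measured, and Nop58 was the only one past 0.5, at 0.77 (0.26 to 1.31). In the PMP22 and FAM234 families, 4 of 6 were measured and Emp1 and Fam234b were the lower ones, while their relatives Emp3 (−0.16) and Fam234a (−0.09) were not. Emp1 and Fam234b passed the minimum through WT alone.

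In monocyte-like cluster 3 the same lists were counted over genes that reached 50 UMIs in a library, of which 3.47% of 9690 were lower by more than 0.5. Haem handling held 2 lower genes of 21, Hebp1 and the haemoglobin scavenger receptor Cd163 (log2 ratio −0.72, −1.43 to −0.04). Cd163 had 64 UMIs in WT and 26 in APP/PS1. Both genes passed the minimum of 50 UMIs through WT alone and Hebp1 was chosen by its values, so this count is only a description. Cdkn1a (−0.51, −0.57 to −0.45) and Cdkn2c (−0.57, −0.94 to −0.20) were again lower among 14, and of the JNK and p38 pathways Dusp16, Map2k3 (−0.57) and Map2k6 (−0.50) were lower among 11. Crtc3, a CREB coactivator, was the lower one of 8 in the CREB group, at −0.73 (−0.87 to −0.59). Both measured formyl peptide receptors, Fpr1 and Fpr2, had a log2 ratio of 0.01, that is, nearly equal levels in the libraries.

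By correlation over cell groups and both libraries, the 5 genes nearest to Hebp1 lay on other chromosomes. Over 24 points (12 cell groups in 2 libraries) and 9527 genes that reached at least 200 UMIs in a library, Pearson's r of log2(CPM + 1) with Hebp1 was highest for Vill (0.68), Hbegf (0.64), Cd14 (0.64), Cnbd2 (0.58) and Snai1 (0.53). The points cover both libraries, so r also draws on the difference between them for which Hebp1 was chosen. Some groups held few or no Hebp1 UMIs, and the points share their libraries and differ in depth. These values are therefore a description, and a low r of a neighbour says little about a shared pattern. Hbegf, a growth factor, was at 61.0 CPM in WT neutrophil-like cells and 2.48 CPM in APP/PS1, and Cd14, a coreceptor for bacterial lipopolysaccharide, at 1002 and 339 CPM. Of the neighbours, Dusp16 had an r of 0.40 (rank 80) and Fam234b of 0.24, and Emp1 of 0.05.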

How the data were processed

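Blood cells of WT and APP/PS1 mice were sequenced as 1 library per genotype, and the authors deposited raw UMI counts per gene and cell from Cell Ranger 5.0.0 on mm10. No column of the count files was left unused. Following the study's filters, cells were kept whose number of genes and number of UMIs both lay between the 5th and 95th percentiles and whose mitochondrial share was at most 10%. Cells were clustered with Seurat 5.3.0 (15 principal components, resolution 0.2) and named from listed markers by a rule written after the clusters were seen. Doublets were called with the scrublet function of scanpy 1.11.5. The APP/PS1 library's own threshold called 0, so the WT threshold was used for both, which called 1548 and 1286, and doublets were left in the main values. UMIs were summed per library and cell type and given as CPM with exact intervals. No test was run. A gene was measured with at least 50 UMIs in a library (20 outside neutrophil-like cells). The interval and ratio code was tested on simulated data. The 7 genes, the lists and the naming rule for other genes were chosen with earlier results of these data known. Named neighbours had at least 50 UMIs in a library over all kept cells, and named list genes were those past 0.5 in neutrophil-like cells, with Fpr1, Fpr2, Hebp2 and Hmox1 in any case. Emp3, Fam234a and the list genes of monocyte-like cluster 3 were named after their values were seen. Positions are from GENCODE M21, in which 50 of 32285 identifiers were not matched.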

Additional observations from a re-analysis of the deposited data

Results flagged for a closer look

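Cdkn1b differed in direction between cell types. Its log2 ratio of APP/PS1 to WT was 0.28 in T cell-like cluster 5, and it was −0.28 in neutrophil-like cells, −0.39 in monocyte-like cluster 2 and −0.090 in monocyte-like cluster 3. With 1 library per genotype this difference between cell types was not tested.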

How the results depend on the processing

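Other settings moved few of the values for neutrophil-like cells. The log2 ratio of Hebp1 lay between −8.25 (no percentile limits) and −7.90 (mean over cells). Over 9 or 10 other settings each, the ratio lay between −7.18 and −6.19 for Fam234b, −1.51 and −1.37 for Emp1, −1.33 and −1.21 for Dusp16, −0.42 and −0.36 for Crebl2, −0.32 and −0.27 for Cdkn1b, and −0.07 and 0.02 for Ddx47, whose sign therefore depends on the setting. The number of the 7 genes lower by more than 0.5 was 2 (Hebp1 and Dusp16) with a minimum of 200 UMIs and 2 with cells thinned to 1000 UMIs, settings under which fewer genes reach the minimum, and 4 otherwise. The share of cells with a Hebp1 UMI, thinned, was 1.96% in WT and 0% in APP/PS1. No thinned ratio could be given for Hebp1 or Fam234b, since 0 UMIs were left in APP/PS1. The median of the neighbours was −0.54 within 1 Mb and −0.05 within 5 Mb, against 0.00 within 2 Mb. Settings added after the data were seen gave Hebp1 in erythroid-like cells a log2 ratio of −0.34 without called doublets, Emp1 in T cell-like cluster 5 one of 0.75, and Dusp16 in monocyte-like cluster 2 one of −0.34. No paired analysis was possible because each genotype has 1 library, and for the same reason no library could be left out. Depth limits statements on Fam234b and on Hebp1 in lymphocytes, which rest on few UMIs.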
